A study of Mus musculus with 2 samples.

Results

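The genes described here are 43 mouse genes whose products copy DNA or supply the deoxynucleotides for it. They were taken by symbol: every non-control probe whose gene name, in both array tables, is one of the 43 listed symbols or a synonym was kept, which gave 58 probes among 41174. Of the 43 genes, 36 were measured. A gene was measured if a probe was well above background in at least 1 of the 2 cell populations on both arrays. In this way 6198 genes in all were measured, where each probe without a gene name counts as a gene of its own. The comparison asked how RNA of cells with high Lgr6 reporter signal differed from RNA of cells with high Lgr5 reporter signal.

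Lgr6-high cells were the GFP-high fraction of dorsal skin cells of Lgr6-EGFP-ires-CreERT2 knock-in mice. Lgr5-high cells were the corresponding fraction of Lgr5-EGFP-ires-CreERT2 knock-in mice, so cells of both populations carried a reporter allele and neither came from a wild-type animal. Both genes encode surface receptors that bind R-spondins, secreted proteins that strengthen Wnt signalling, and in skin they mark stem cells of different regions of the hair follicle. Each sort pooled 3 mice, 150 ng of total RNA entered each labelling, and the labels used here give neither age, sex nor hair cycle stage. Both RNAs were hybridised together on 2 Agilent two-colour arrays. On array 1 the Lgr6-high RNA carried Cy5 and the Lgr5-high RNA Cy3, and array 2 had the opposite labelling. Since the labels do not state that the arrays drew on separate sorts, they count as 1 replicate seen in both dye orientations, without a test of the populations. A gene was called by size instead, when its mean log2 ratio reached 1 in size (2-fold) and neither array fell short of 0.5 in that direction. All ratios below are log2 of Lgr6-high over Lgr5-high, and each SD is over the 2 arrays, so it covers hybridisation and dye and not animals.

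A cell prepares for replication by loading the ring of Mcm2 to Mcm7 onto origins, with the origin recognition complex, Cdc6 and Cdt1 as loaders and geminin (Gmnn) as the inhibitor of Cdt1. When S phase starts, Cdc45 and the GINS complex turn the ring into an active helicase, primase and DNA polymerase alpha lay down primers, and polymerases delta and epsilon extend them, held to DNA by the PCNA clamp that replication factor C loads. Ribonucleotide reductase, thymidylate synthase, thymidine kinase and dUTPase provide and clean the deoxynucleotide pool. Many of these genes are transcribed together before S phase through E2F factors, and in the hair follicle dividing keratinocytes are found mainly during the growth phase.

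Called genes with a promoter window were taken in order of mean ratio, lowest first, with a single gene per role except for the helicase. As examples of their start regions, the windows of the first 4 are printed. They are RefSeq sequences of build GRCm38.p6, from 250 bases before to 50 after the annotated start, and are those of Tk1 (chr11:117825965-117826264), Mcm7 (chr5:138171834-138172133), Pold1 (chr7:44548766-44549065) and Mcm6 (chr1:128359656-128359955), all on the minus strand and written 5′ to 3′ along the gene. Capitals mark the letters of an E2F form, searched as TTTCGCGC, TTTGGCGC, TTTCCCGC or TTTGCCGC on both strands, with overlapping matches counted separately.
Tk1: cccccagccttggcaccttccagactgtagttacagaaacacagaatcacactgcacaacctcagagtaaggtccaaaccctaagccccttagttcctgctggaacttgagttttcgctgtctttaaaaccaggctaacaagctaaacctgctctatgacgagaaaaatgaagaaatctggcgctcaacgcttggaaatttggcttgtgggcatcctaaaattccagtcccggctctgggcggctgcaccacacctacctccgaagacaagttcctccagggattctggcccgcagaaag
Mcm7: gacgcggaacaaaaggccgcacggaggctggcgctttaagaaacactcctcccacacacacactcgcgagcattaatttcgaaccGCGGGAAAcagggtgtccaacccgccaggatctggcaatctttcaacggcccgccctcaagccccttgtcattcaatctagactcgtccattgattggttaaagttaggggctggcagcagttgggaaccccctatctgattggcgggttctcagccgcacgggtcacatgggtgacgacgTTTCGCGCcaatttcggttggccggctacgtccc
Pold1: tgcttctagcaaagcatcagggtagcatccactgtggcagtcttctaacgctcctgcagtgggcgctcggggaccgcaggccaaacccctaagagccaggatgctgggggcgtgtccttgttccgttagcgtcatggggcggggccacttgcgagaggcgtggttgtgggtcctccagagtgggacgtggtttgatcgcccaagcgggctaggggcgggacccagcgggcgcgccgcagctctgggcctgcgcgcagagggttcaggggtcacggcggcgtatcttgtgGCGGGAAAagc
Mcm6: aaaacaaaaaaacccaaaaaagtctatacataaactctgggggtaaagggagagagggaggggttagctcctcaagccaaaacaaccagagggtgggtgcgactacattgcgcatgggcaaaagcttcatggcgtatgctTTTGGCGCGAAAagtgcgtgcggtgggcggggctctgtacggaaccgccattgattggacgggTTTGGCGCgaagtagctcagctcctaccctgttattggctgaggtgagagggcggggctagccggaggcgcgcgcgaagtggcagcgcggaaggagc

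Mcm6 held 3 matches, starting 110, 106 and 47 bases before the start, and the pair at 110 and 106 overlaps. Mcm7 held matches 165 bases before and 16 bases after its start, and Pold1 held 1 match, 39 bases after its start. Tk1, the member with the lowest ratio, held none of these letters, and neither did Lig1 or Mcm10, whose windows are not printed. Of the 35 members with a window in the table, 10 held an E2F form (28.6%), against 207 of 4688 measured genes (4.42%) and 626 of 27018 genes with a window (2.32%). The members' windows had a median GC content of 61.3%, the same as those of all measured genes, against 52.7% for all genes with a window. Among called members 4 of 14 held a form (Mcm5, Mcm6, Mcm7 and Pold1), among members measured but not called 2 of 14 (Mcm3 and Cdt1), and among members not measured 4 of 7 (Rfc3, Pola1, Cdc6 and Orc1l). CCAAT, searched on both strands, was in 62.9% of member windows and 39.4% of those of measured genes. It was in 42.9% of windows of called members and in 78.6% of those of members measured but not called. The letters TTTGAA or TTCGAA, a form of the cell cycle homology region, were in 14.3% of member windows and 13.3% of those of measured genes. Each gene was scored on the first window listed for it, a match is only a run of letters, and the arrays hold no measure of binding.

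Replication and nucleotide genes were lower in Lgr6-high cells than in Lgr5-high cells. The mean ratio was below 0 in 36 of 36 measured members and below 0 on each array in 35, Orc6l being the exception, whereas 53.5% of all measured genes had a mean ratio below 0. Of the 36, 11 had Lgr6-high signal above background on 1 array only and passed the filter through their Lgr5-high signal. The mean ratio was also below 0 in all 25 members above background in both populations on both arrays, with a median of -1.13. By the 2-fold rule 16 of the 36 were lower in Lgr6-high cells, where 4.78% of all measured genes were, and 0 were higher, where 7.28% of all measured genes were. The members' median ratio was -0.91, a 1.88-fold lower level in Lgr6-high cells, against a median of -0.05 over all measured genes. The members ranged from -1.98 for Tk1 to -0.01 for Orc6l. In 34 members both Lgr6-high levels lay below both Lgr5-high levels, a separation that 34.2% of all measured genes showed in this direction, and the levels overlapped in Orc6l and Pold2. With limma across all measured genes, 27 members were lower at an adjusted p under 0.05, where 11.3% of all measured genes were, and 16 of them with the 2-fold minimum as well, where 4.89% were. These p-values rest on hybridisations and not on animals. At a 1.5-fold minimum in place of 2-fold, 27 members were called lower, where 11.4% of all measured genes were.

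**Figure D1:**
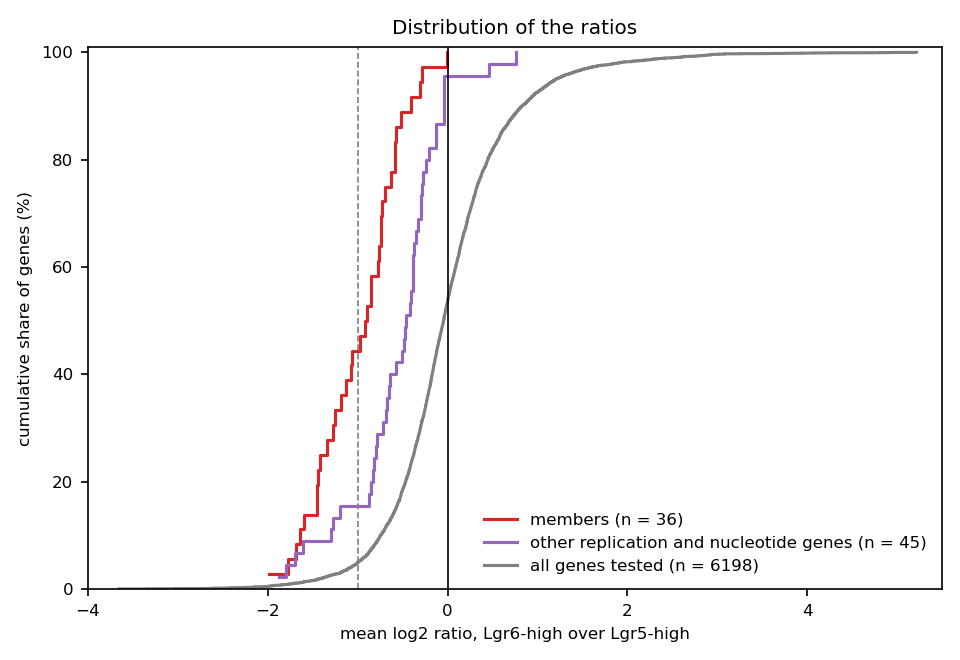
Distribution of the mean log2 ratio of Lgr6-high over Lgr5-high (x axis) for the 36 measured members and for all 6198 measured genes. The members lie to the left of 0, with a median of -0.91 against -0.05 for all measured genes.

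The size of the shift depended on the scaling more than its direction did. With the ratios computed by the scanner software 30 of 36 members were called lower and 0 higher, where 15.5% of all measured genes were called in each direction, and the members' median was -1.55. With the background model fitted on all spots 9 members were called lower, where 2.44% of all measured genes were, and without background subtraction 10 were, where 3.29% were. Mcm6, Mcm7, Gmnn, Pold1, Rfc2, Lig1, Tk1, Dut and Tyms were called in all of these settings as well as under the chosen one. Without any filter on dim probes 16 of 43 were called, where 1.07% of 27770 genes were, and with both populations above background 14 of 25, where 4.9% of 4506 genes were. The median over a gene's probes gave 16 calls, where 4.45% of all measured genes were called. Without loess 0 members were called lower, where 0.936% of all measured genes were, because the 2 dye orientations were then offset from each other: the members' medians were -2.48 and 0.45 on arrays 1 and 2, against -1.36 and 1.57 over all measured genes. Among all measured genes called, 60.4% were higher in Lgr6-high cells under the chosen setting, as many were higher as lower with the scanner's ratios, and 45.1% were higher with the model fitted on all spots, 51.0% without background subtraction and 69.8% without loess.

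The sorted cells were whole populations, in which fewer cells of a type and less RNA per cell cannot be told apart. Of all probe spots, 31.6% on array 1 and 33.3% on array 2 stood well above background in Cy3, and 15.3% and 16.2% in Cy5. The label of the Lgr5-high population was borne out by a called Lgr5 probe (-1.83 ± 0.12), whose Lgr6-high signal was above background on 1 array only. A second Lgr5 probe was at background and neither Lgr6 probe was measured, so Lgr6 checks nothing. All 10 keratinocyte markers were measured, and Itga6, Itgb4, Cdh1, Perp, Dsp and Col17a1 were called higher in Lgr6-high cells. Their summed level on array 1 was 246360 arbitrary units in Lgr6-high cells, against 65738 in Lgr5-high cells, but on array 2 it was 134343 in Lgr6-high cells, against 131348 in Lgr5-high cells. Krt5, Krt14 and Krt15, which carry most of that sum, had ratios of 1.82, 2.24 and 1.95 on array 1 and of -0.15, -0.10 and -0.12 on array 2.

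Several markers of other cells were lower in Lgr6-high cells, as the replication genes were, though not all. Of 12 fibroblast markers 7 were measured and Col1a1, Col1a2, Col3a1 and Dcn were called lower in Lgr6-high cells, while Pdgfra and Vim were not measured. The list summed to 1284 and 1154 in Lgr6-high cells, against 3646 and 2331 in Lgr5-high cells. Postn went the other way, with 411 and 651 in Lgr6-high cells, against 298 and 305 in Lgr5-high cells. Of 12 endothelial and mural markers 4 were measured and Egfl7, Ramp2 and Tagln were called lower, while Pecam1 and Cdh5 were not measured. Their sums were 1219.8 and 1173 in Lgr6-high cells, against 2906 and 2449.7 in Lgr5-high cells. Acta2, the other measured marker, was higher on both arrays, with 687 and 929 in Lgr6-high cells, against 453 and 406 in Lgr5-high cells. The measured melanocyte marker Dct, with 123 and 56.8 in Lgr6-high cells, against 340.3 and 182 in Lgr5-high cells, was called lower, and so were the haemoglobin genes Hba-a1 and Hbb-bt, whereas 0 of the 11 leukocyte markers on the array were measured. Of 10 markers listed for the hair matrix, the dividing base of the growing follicle, and for layers next to it, 4 were measured. The keratins Krt28, Krt71 and Krt75 were called lower in Lgr6-high cells, while Krt35, Krt85, Msx2, Lef1, Hoxc13 and Shh were not measured. Gata3 was called higher and carried the list's Lgr6-high sum of 1782 and 2393, with 1323 and 2197 in Lgr6-high cells, against 264 and 318 in Lgr5-high cells. The whole list summed to 1684 and 1226 in Lgr5-high cells. Of the markers called lower, Col3a1, Dcn, Egfl7, Dct and Krt28 were above background in Lgr6-high cells on neither array. Col1a1, Col1a2, Ramp2, Krt71 and Krt75 were so on 1 array. These markers passed the filter through their Lgr5-high signal, and their Lgr6-high levels are bounds only, also within the sums. Tagln, Hba-a1 and Hbb-bt were above background in both populations on both arrays. The part of any of these cell types in the replication gene ratios was not tested.

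**Figure D2:**
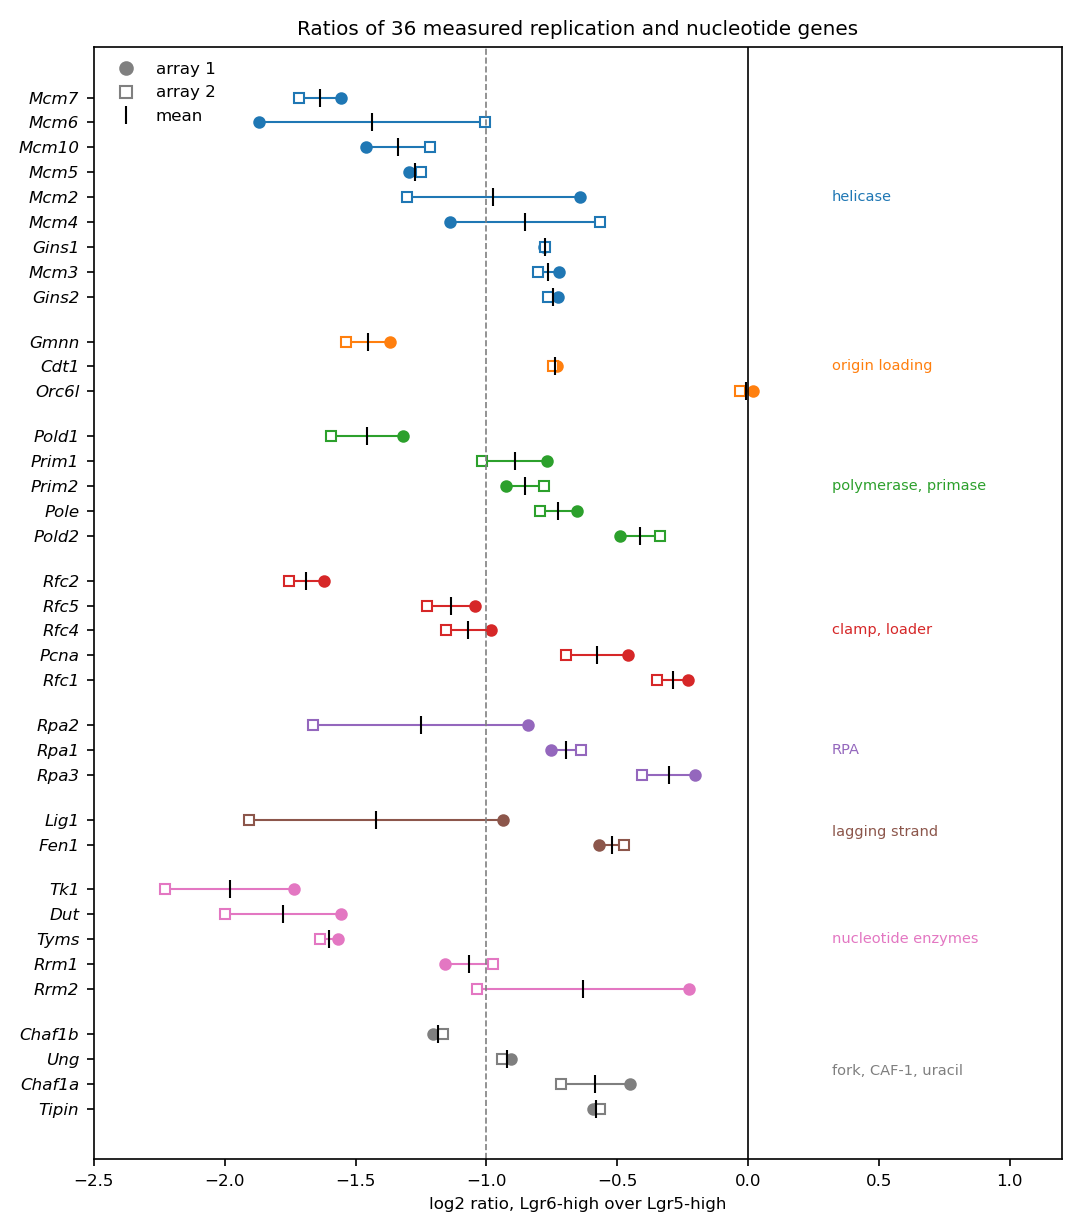
Mean log2 ratio of Lgr6-high over Lgr5-high (x axis) for each of the 36 measured members, grouped by role, with the value of each array as a point. No mean lies above 0, and Tk1, Dut, Rfc2, Mcm7 and Tyms are farthest below it.

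The replicative helicase was represented by 9 of 10 genes, all with ratios below 0 on both arrays and with a median of -0.97, and 4 were called lower in Lgr6-high cells. Mcm7, a ring subunit, had normalised intensities of 429.9 and 364 in Lgr6-high cells on arrays 1 and 2, against 1265 and 1197 in Lgr5-high cells, a mean ratio of -1.64 ± 0.11. Its probe lies on chromosome 5, 138605925 to 138605984, minus strand, in mouse build mm9. Mcm6, another ring subunit, had 772 and 1057 in Lgr6-high cells, against 2816 and 2122 in Lgr5-high cells (-1.44 ± 0.61). Mcm5 had 303 and 282 in Lgr6-high cells, against 744 and 671 in Lgr5-high cells (-1.27 ± 0.03). In each of these 3 genes the populations were separated on both arrays, by similar amounts for Mcm5 and Mcm7 and by more on array 1 than on array 2 for Mcm6. Mcm10, which helps to start the fork, had 164 and 143 in Lgr6-high cells, against 451 and 333 in Lgr5-high cells (-1.34 ± 0.17), with Lgr6-high signal above background on 1 of the arrays.

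The remaining ring subunits were below the 2-fold mark, Mcm2 just so. Mcm2 had 161 and 116 in Lgr6-high cells, against 252 and 287 in Lgr5-high cells, so that its ratio was -0.64 on array 1 and -1.30 on array 2 (-0.97 ± 0.47), its Lgr6-high signal being not above background on array 1. Mcm4 went the other way between arrays, with 539 and 633 in Lgr6-high cells, against 1188 and 938 in Lgr5-high cells, and ratios of -1.14 and -0.57. Mcm3 had 278 and 263 in Lgr6-high cells, against 459 and 458 in Lgr5-high cells (-0.76 ± 0.06). The GINS subunits Gins1 (-0.78 ± 0.003) and Gins2 (-0.75 ± 0.03) had nearly equal ratios on the arrays. Gins1 had 143 and 106 in Lgr6-high cells, against 246 and 181 in Lgr5-high cells, and Gins2 had 176 and 128 in Lgr6-high cells, against 291 and 217 in Lgr5-high cells. For Gins1 the Lgr6-high signal was not above background on array 1. Over the ring subunits the ratios ran from -1.64 for Mcm7 to -0.76 for Mcm3, and whether subunits differ from each other was not tested.

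Of the origin loading genes, Gmnn, Cdt1 and Orc6l were measured, with ratios from -1.45 to -0.01. Gmnn had 576 and 573 in Lgr6-high cells, against 1486 and 1661 in Lgr5-high cells (-1.45 ± 0.12), and was called lower. Cdt1, the loader that geminin inhibits, had 462 and 416 in Lgr6-high cells, against 767 and 696 in Lgr5-high cells (-0.74 ± 0.01). Orc6l, the smallest subunit of the origin recognition complex, had 688 and 749 in Lgr6-high cells, against 679 and 766 in Lgr5-high cells (-0.01 ± 0.04). Its levels overlapped, although its probe was well above background in both populations on both arrays.

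Polymerase and primase genes had a median of -0.85 over 5 measured of 7, and 1 was called. Pold1, the catalytic subunit of polymerase delta, had 438 and 353 in Lgr6-high cells, against 1093 and 1065 in Lgr5-high cells (-1.46 ± 0.20). A second Pold1 probe gave -1.25 and -1.69 on arrays 1 and 2. Pold2, the accessory subunit of the same enzyme, had 114 and 90.0 in Lgr6-high cells, against 160.3 and 114 in Lgr5-high cells (-0.41 ± 0.11), with Lgr6-high signal above background on 1 of the arrays. Pold1 was thus well separated, whereas the Pold2 levels of the populations overlapped near the background. That overlap was between arrays only, and on each array the Lgr6-high level of Pold2 was the lower.
Pole, the catalytic subunit of polymerase epsilon, had 177 and 106 in Lgr6-high cells, against 278 and 184 in Lgr5-high cells (-0.72 ± 0.10). The catalytic primase subunit Prim1 had 293 and 248 in Lgr6-high cells, against 499 and 502 in Lgr5-high cells (-0.89 ± 0.18). Its partner Prim2 had 109 and 91.9 in Lgr6-high cells, against 206 and 158 in Lgr5-high cells (-0.85 ± 0.10), with Lgr6-high signal not above background on array 1. Neither primase subunit reached 2-fold.

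The clamp and its loader gave 3 calls among 5 measured genes, with a median of -1.07. Rfc2, a loader subunit, had 745 and 626 in Lgr6-high cells, against 2292 and 2115 in Lgr5-high cells (-1.69 ± 0.10), and its second probe gave -1.36 and -1.33. Rfc5 had 291 and 219 in Lgr6-high cells, against 600.1 and 512 in Lgr5-high cells (-1.13 ± 0.13). Rfc4 had 161 and 134 in Lgr6-high cells, against 317 and 298 in Lgr5-high cells (-1.07 ± 0.12), with Lgr6-high signal above background on 1 array. These 3 small subunits were called lower, while Rfc1, the large subunit, had a ratio of -0.29 ± 0.08 with 152 and 133 in Lgr6-high cells, against 178 and 169 in Lgr5-high cells. Pcna, the clamp, had 1588 and 1492 in Lgr6-high cells, against 2183 and 2414 in Lgr5-high cells (-0.58 ± 0.17), and was not called. Its probe was spotted 10 times. The 8 unmarked spots of array 1 gave ratios between -0.61 and -0.19 (SD 0.119), and the 10 spots of array 2 ratios between -0.89 and -0.46 (SD 0.146), all below 0.

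Replication protein A, which coats single-stranded DNA at the fork, had 1 call among 3 genes. Rpa2 had 209 and 144 in Lgr6-high cells, against 374 and 455 in Lgr5-high cells, with ratios of -0.84 and -1.66 (-1.25 ± 0.58). A second Rpa2 probe gave -0.88 and -0.94, which does not meet the 2-fold rule. Rpa1 had 189 and 198 in Lgr6-high cells, against 319 and 309 in Lgr5-high cells (-0.70 ± 0.08), and was not called. Rpa3 had 114 and 92.6 in Lgr6-high cells, against 131 and 123 in Lgr5-high cells (-0.30 ± 0.14), with Lgr6-high signal not above background on array 1. Of the genes that finish lagging-strand fragments, Lig1, the ligase, had 817 and 491 in Lgr6-high cells, against 1565 and 1839.9 in Lgr5-high cells (-1.42 ± 0.68). Lig1 was lower on both arrays but by unequal amounts, -0.94 and -1.91. Fen1, the flap nuclease, had 107 and 93.2 in Lgr6-high cells, against 158 and 129 in Lgr5-high cells (-0.52 ± 0.07), with Lgr6-high signal above background on 1 array.

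Nucleotide enzymes had the lowest median ratio of the role groups, -1.60, and 4 of 5 measured genes were called lower in Lgr6-high cells. Tk1, the S phase kinase that salvages thymidine, had 243 and 168 in Lgr6-high cells, against 809.7 and 789 in Lgr5-high cells (-1.98 ± 0.35, a 3.95-fold lower level in Lgr6-high cells). Its probe lies on chromosome 11, 117677105 to 117677164, minus strand, in build mm9. Dut, which removes dUTP, had 451 and 411 in Lgr6-high cells, against 1326 and 1640.0 in Lgr5-high cells (-1.78 ± 0.31), and a second probe gave -1.31 and -0.94. Tyms, which makes thymidylate, had 314 and 234 in Lgr6-high cells, against 930.3 and 728 in Lgr5-high cells (-1.60 ± 0.05). Tk1, Dut and Tyms, all enzymes of thymidylate supply, were each separated by more than 2-fold on both arrays. The second probe of Dut fell just short of 2-fold on array 2.

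Ribonucleotide reductase has a large subunit, Rrm1, and a small subunit, Rrm2, that is made in S phase. Rrm1 had 246 and 255 in Lgr6-high cells, against 548 and 502 in Lgr5-high cells (-1.07 ± 0.13), and was called. Rrm2 had 146 and 84.3 in Lgr6-high cells, against 171 and 173 in Lgr5-high cells, with ratios of -0.23 on array 1 and -1.03 on array 2 (-0.63 ± 0.57). On array 1 its Lgr6-high signal was not above background.

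**Figure D3:**
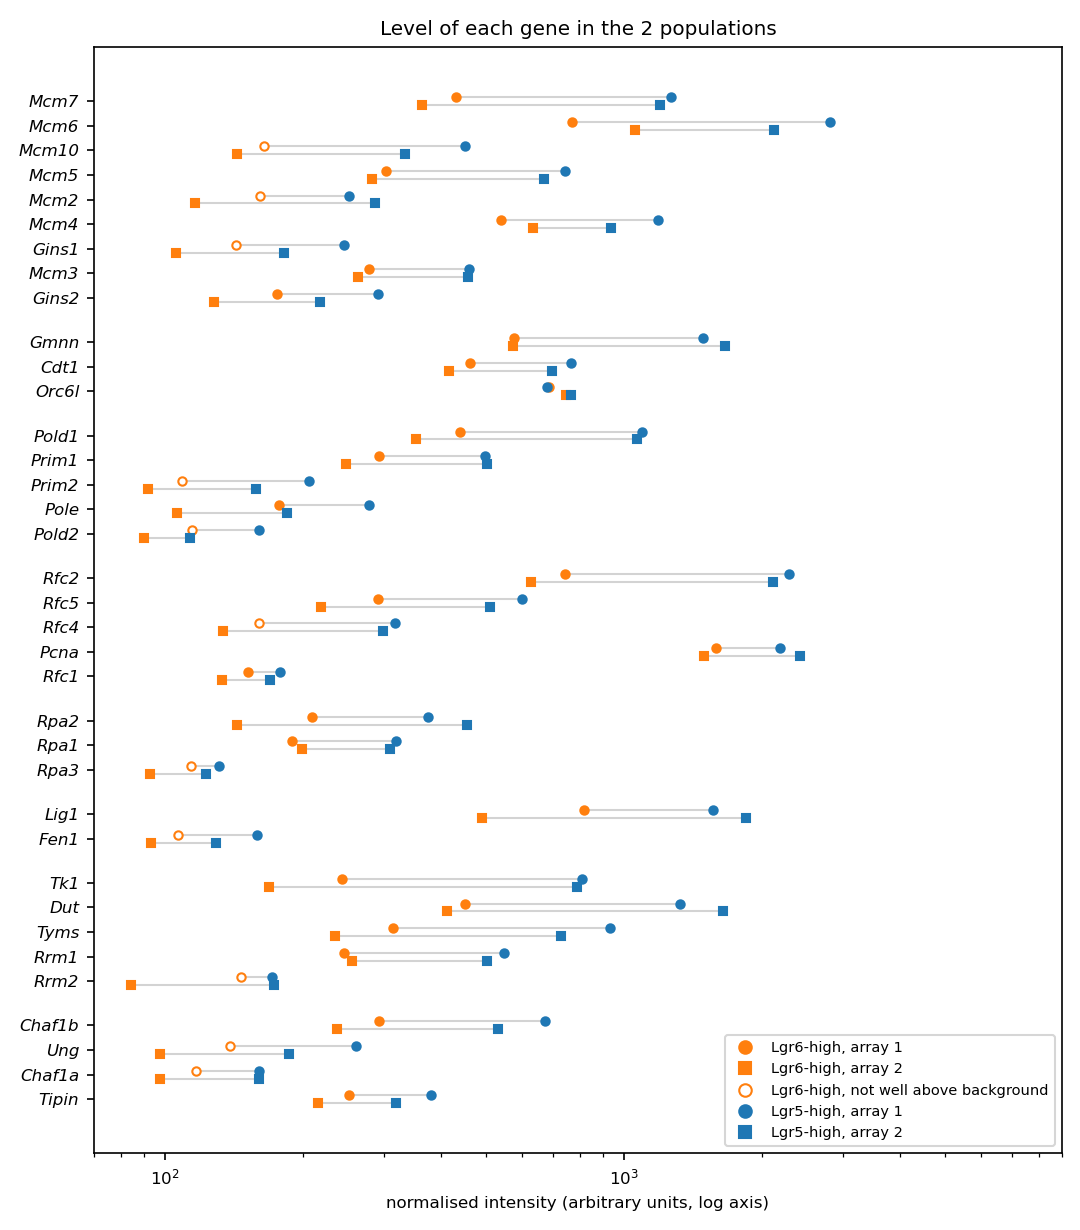
Normalised intensity in arbitrary units (log axis) of each measured member in Lgr6-high and Lgr5-high cells, 1 point per population and array. In 34 of 36 members both Lgr6-high points lie below both Lgr5-high points, and Orc6l and Pold2 overlap.

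The median ratio was lower for the nucleotide enzymes than for the helicase and the polymerase genes, at -1.60, -0.97 and -0.85. The median of the nucleotide enzymes was the lowest of the 3 on each array and under every other setting tried. The order of helicase and polymerase was not stable, since the scanner's ratios gave -1.60 for the helicase and -1.66 for the polymerases. These classes hold 5, 9 and 5 measured genes, their members ranged widely, and genes are no replicates, so the difference between classes was not tested. Across the 36 members the ratio had a Pearson correlation of -0.50 with mean log2 intensity, as brighter probes had lower ratios. This is a description across probes that share the arrays and an offset of 50 added to every signal, which by construction draws ratios of dim probes toward 0.

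Chromatin and repair partners of the fork were lower too. Chaf1b, a subunit of the histone chaperone CAF-1, had 292 and 237 in Lgr6-high cells, against 673 and 532 in Lgr5-high cells (-1.18 ± 0.03), and was called. Its partner Chaf1a had 117 and 97.6 in Lgr6-high cells, against 159.9 and 160.4 in Lgr5-high cells (-0.58 ± 0.19). Tipin, a fork protection factor, had 251 and 215 in Lgr6-high cells, against 379 and 319 in Lgr5-high cells (-0.58 ± 0.02). Ung, which removes uracil from DNA, had 139 and 97.3 in Lgr6-high cells, against 260.1 and 187 in Lgr5-high cells (-0.92 ± 0.02). Only Chaf1b of these 4 reached 2-fold, and Chaf1a and Ung had Lgr6-high signal above background on 1 of the arrays.

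**Figure D4:**
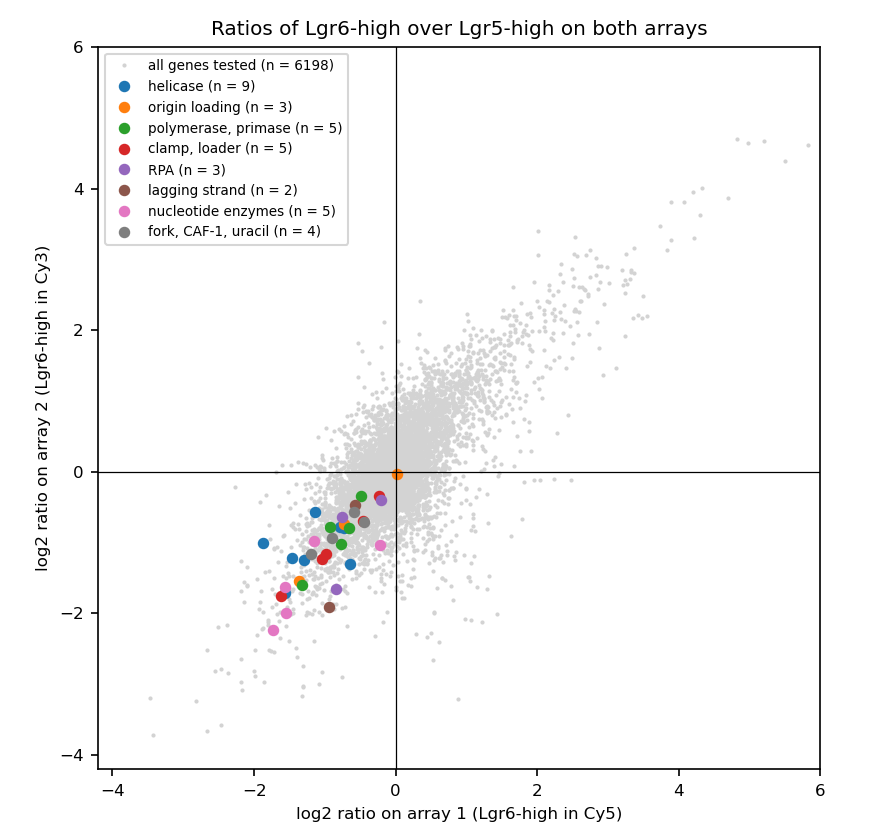
Log2 ratio of Lgr6-high over Lgr5-high on array 1 (x axis) and array 2 (y axis) for the measured members and all measured genes. The members lie in the lower left, apart from Orc6l near 0, with a Pearson correlation of 0.753 over 36 genes.

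Under the chosen setting the 2 dye orientations gave similar values for the members. Their ratios had a Pearson correlation of 0.753 and a Spearman correlation of 0.751 between arrays over 36 genes, against a Pearson correlation of 0.749 over all measured genes. The median SD was 0.12 for the members and 0.23 for all measured genes. Array 2 gave the lower ratio in 24 of 36 members, with a median difference of -0.10. With the background model fitted on all spots the arrays differed more, with members' medians of -0.87 on array 1 and -0.25 on array 2. Of the 16 called members 12 were at least 2-fold lower on both arrays. Array 1 alone gave 14 calls, without Rpa2, Lig1 and Rfc4 and with Mcm4 added, where 5.07% of all measured genes were called lower. Array 2 alone gave 18, without Rrm1 and with Mcm2, Prim1 and Rrm2 added, where 7.62% were. All 36 members were above background in Lgr5-high cells on both arrays, and 25 were also in Lgr6-high cells on both. In the other 11 the Lgr6-high signal passed on a single array, always the one where Lgr6-high RNA carried Cy3. These 11 passed the filter through their Lgr5-high signal, and 14 of the 16 calls belong to genes above background in both populations on both arrays.

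The 7 members not measured were Cdc45l, Cdc6, Orc1l, Dctd, Rfc3, Pola1 and Pola2, and no level can be given for them. Of the 58 probes 42 passed the filter and 16 did not. Probes that did not pass stood for genes measured by another probe in some cases: for Mcm4 such a probe gave -0.04 and -0.14, for Gins1 -0.15 and 0.34, for Rrm1 0.09 and -0.36 and for Pole 0.27 and 0.05. Another Tyms probe at background gave -0.02 and -0.09, beside -1.41 and -1.31 for a second probe that passed. Of 6 genes with several passing probes, Rpa2 was the one whose probes fell on different sides of the 2-fold rule. The second probe of Mcm3 gave -0.59 and -0.55.

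Genes of the same pathway outside the 43 also had ratios below 0 for the most part. In a list of 80 further replication, S phase and nucleotide genes, 79 were on the array and 45 were measured. Of these 7 were called lower in Lgr6-high cells and 0 higher, beside 4.78% and 7.28% of all measured genes. A mean ratio below 0 was found in 43, beside 53.5% of all measured genes, and the median was -0.47, beside -0.05. Cad, which starts pyrimidine synthesis, was lowest, with 188 and 136 in Lgr6-high cells, against 708 and 487 in Lgr5-high cells (-1.88 ± 0.05). Dtymk, the kinase that follows Tk1 and Tyms in thymidylate supply, had 271 and 243 in Lgr6-high cells, against 858 and 814 in Lgr5-high cells (-1.70 ± 0.06). The PCNA-binding factor 2810417H13Rik, now Pclaf, had 241 and 202 in Lgr6-high cells, against 901 and 649.6 in Lgr5-high cells (-1.79 ± 0.15). The other calls were Uhrf1, a partner of maintenance DNA methylation (-1.61 ± 0.15), Rnaseh2c, a subunit of RNase H2 (-1.30 ± 0.13), cyclin A2, Ccna2 (-1.27 ± 0.31), and Chtf18, part of an alternative clamp loader (-1.20 ± 0.68). Cad and Chtf18 had Lgr6-high signal above background on 1 array only and passed the filter through their Lgr5-high signal. The genes above 0 were Top1, a topoisomerase used in transcription as well (0.76 ± 0.45), and Adss, an enzyme of AMP synthesis (0.46 ± 0.34).

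**Figure D5:**
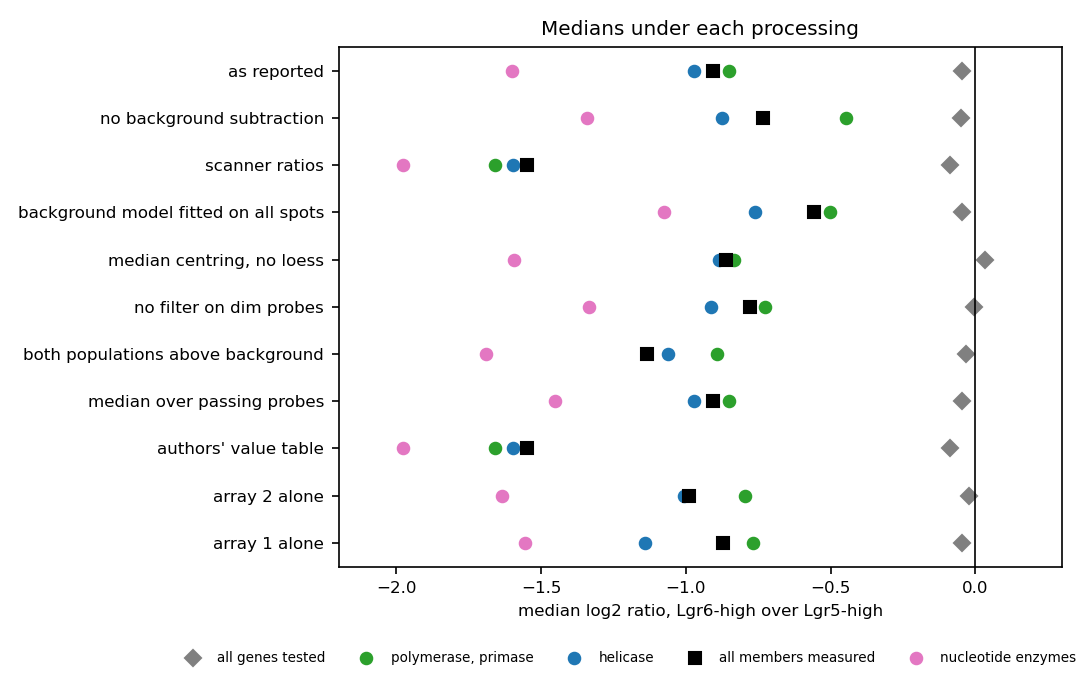
Median log2 ratio of Lgr6-high over Lgr5-high for all measured members and for the helicase, polymerase and nucleotide classes under each processing setting. The medians of the members and classes are all below 0, from -0.45 to -1.98, and the nucleotide enzymes are lowest in each setting. The median of all genes tested is also shown, from -0.09 with the scanner's ratios to 0.04 without loess.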

How the data were processed

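The authors deposited scanner tables of spot intensity and local background, and the software's log10 ratio of Cy5 over Cy3, per the file headers from Agilent Feature Extraction 10.5.1.1 with probes on build mm9 (the submitters' processing notes name version 9.5.3). The deposited value table holds the same log10 ratios, turned to Lgr6-high over Lgr5-high, within 5e-06, with a median of 0 on each array, so its scale and direction are known. With R 4.3.3 and limma 3.58.1, background was corrected with normexp (offset 50, fitted on unmarked spots), and ratios were normalised by loess with controls at weight 0. Marked spots (139 and 204 probe spots) were left out, replicate spots averaged and ratios given as log2 with Lgr6-high on top. Levels are loess values scaled between arrays by Aquantile, in arbitrary units that include the offset. Each gene is its brightest passing probe. No probe spot was saturated, and with 2 arrays the number of arrays limits the precision. Names come from RefSeq GRCm38.p6 (25263 probes by accession, 6233 by symbol, 1603 by synonym). Another 1679 probes kept the name given with the array, and 6396 had no name and each count as a gene of their own. The script was tested on simulated data with changes planted in bright probes only, so that test does not cover the dim members. Members, lists, classes and the call rule were chosen with earlier results of these data known. All measured members are named, as are called genes and the extremes of the further list, and called markers.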

Additional observations from a re-analysis of the deposited data

How the results depend on the processing

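The sign of the mean ratio was the same for nearly all members in each setting. The 4 settings that recompute every ratio were no background subtraction, the scanner's ratios, the model fitted on all spots and no loess. Over these, 142 of 144 mean ratios of single members were below 0, and both others were of Orc6l. Without loess the sign held for the mean only, in which opposite dye offsets cancelled. The members' medians were then -2.48 on array 1 and 0.45 on array 2, against -1.36 and 1.57 over all measured genes. The remaining alternatives mostly reuse the same ratios and say little on direction. In each setting 0 members were called higher, where 1.62% to 15.5% of genes were, limma with the 2-fold minimum called 16 lower, and a 1.5-fold minimum called 27. Sizes did change, and the cause was not tested. In what follows the medians are given for all members, helicase, polymerase and nucleotide genes in that order. Without background subtraction 10 members were called and the medians were -0.73, -0.88, -0.45 and -1.34. The scanner's ratios, and equally the authors' value table, gave 30 calls and medians of -1.55, -1.60, -1.66 and -1.98. The background model fitted on all spots gave 9 calls and medians of -0.56, -0.76, -0.50 and -1.07. Without loess there were 0 calls, since the rule asks for 0.5 on each array, although 14 members passed the mean alone. Without a filter on dim probes the medians of all members, polymerase and nucleotide genes were -0.78, -0.72 and -1.33, and with both populations above background they were -1.13, -0.89 and -1.69. The median over probes gave -1.45 for the nucleotide genes. With 1 array left out, calls were 14 to 18, and medians lay between -0.99 and -0.87 for all members, -1.14 and -1.01 for the helicase, -0.80 and -0.77 for the polymerases, and -1.63 and -1.55 for the nucleotide genes. No paired analysis was possible because the arrays form 1 group and so share no replicate number with another, while the ratio within an array already pairs the populations. Signal over background limits the dim members: 11 had Lgr6-high signal above background on 1 array only.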
